A study of Mus musculus with 24 samples.

Results

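The messenger RNAs of translation initiation factor eIF2, of the kinases that phosphorylate it and of the phosphatase subunits that reverse this were followed through 6 groups of mouse lung adenocarcinoma cells. The 8 genes were taken by symbol from both count tables, out of 36720 symbols that the tables share, and all 8 were found and passed the filter on low counts in both. They are Eif2s1 and Eif2s2, which encode eIF2α and eIF2β, the kinase genes Eif2ak1 (HRI), Eif2ak2 (PKR), Eif2ak3 (PERK) and Eif2ak4 (GCN2), and Ppp1r15a (GADD34) and Ppp1r15b (CReP), which encode the targeting subunits of the eIF2α phosphatase.

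eIF2 carries the initiator methionyl-tRNA to the ribosome. HRI senses heme deficiency and relays mitochondrial stress, PKR binds double-stranded RNA, PERK senses unfolded protein in the endoplasmic reticulum, and GCN2 senses amino acid shortage through uncharged tRNA and stalled ribosomes. Each of them phosphorylates the same serine of eIF2α, which blocks the exchange factor eIF2B, lowers general protein synthesis and favours translation of ATF4, the transcription factor at the centre of the integrated stress response. GADD34 is induced by that response and CReP is made constitutively, and both bring protein phosphatase 1 to eIF2α.

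The cells were cultured primary cells of lung adenocarcinoma, kept by sorting for GFP and against the leukocyte marker CD45. S/S cells carry wild-type eIF2α, and A/A cells have alanine in place of the phosphorylated serine on both alleles. The A/A and S/S names are in the sample titles. The labels' genotype field reads WT for the control libraries of both, and was taken to mean no knockdown. In the table of 8 libraries, S/S cells had received an shRNA against Atf4 (S/S shAtf4) or a scramble shRNA (S/S shControl). In the table of 16 libraries, A/A and S/S cells had received an siRNA against Chchd10, which encodes a protein of the mitochondrial intermembrane space, or a control siRNA (A/A siChchd10, A/A siControl, S/S siChchd10 and S/S siControl). Each group had 4 libraries. The labels do not say how many tumours or clones the A/A and S/S cultures came from, nor whether a group's 4 libraries are separate cultures. The p-values below therefore reflect the spread among libraries, which may be technical. Because genotype and culture of origin go together, their parts in a difference between A/A and S/S cells cannot be told apart.

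In units of 1000000, total counts ranged from 14.1 to 59.9 in S/S shAtf4, from 17.5 to 70.9 in S/S shControl and from 42.9 to 75.4 in the siRNA table. Levels are counts per 1000000 (CPM) after TMM scaling. In the shRNA table the libraries numbered 4 of both groups stood apart from replicates 1 to 3. The knockdown targets were lower in every library of their group than in every library of its control: Atf4 measured 302, 237, 319 and 225 CPM in the 4 S/S shAtf4 libraries, against 565, 835, 818 and 498 CPM in S/S shControl. Chchd10 measured 5.34 to 6.82 CPM in S/S siChchd10 against 38.1 to 46.0 CPM in S/S siControl, and 1.37 to 2.15 CPM in A/A siChchd10 against 7.97 to 10.2 CPM in A/A siControl. The summed CPM of 5 epithelial markers was 3805 or more in every library, and that of 6 leukocyte markers 4.73 or less. The epithelial sum also differed between groups: it was 3805 to 4149 CPM in A/A siChchd10, 3995 to 4161 CPM in A/A siControl, 5874 to 6284 CPM in S/S siChchd10 and 5247 to 5858 CPM in S/S siControl. Of the 5 markers 4 fell and 1 rose in A/A siControl against S/S siControl, and 4 rose in S/S siChchd10 against S/S siControl, and their part in the results was not tested. Of 6 alveolar type 2 markers none reached 1 CPM on average in the shRNA table, while their sum ranged from 380.4 to 425 CPM in A/A siControl and from 39.2 to 40.9 CPM in S/S siControl, a difference whose part in the results was not tested. For 8 RNAs, picked after seeing the data, that exceeded 20 CPM in all S/S libraries and stayed under 0.2 CPM in all A/A siChchd10 libraries, A/A siControl replicate 1 stood at 6.53% of the S/S siControl level, against 0.967% in replicate 2 and 0.161% and 0.190% in replicates 3 and 4.

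Eif2s1 lies on chromosome 12, 78862072 to 78887010, plus strand (GRCm38). The codon of the serine that tells the genotypes apart is printed here because all 4 kinases act on it. It is serine 51, counted without the initiator methionine, a TCC codon at chr12:78866680-78866682 in exon 2 of 8. The wild-type reference sequence of the window chr12:78866653-78866709 follows, with the codon in capitals.
Eif2s1 codon of serine 51: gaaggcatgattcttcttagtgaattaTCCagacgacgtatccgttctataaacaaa
Counts per gene hold no allele, so the serine and alanine codons could not be told apart in these data.

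Genes were compared per length of exon, taken as the union of exons of all annotated transcripts. On that scale eIF2 subunit mRNAs were the most abundant of the set and Eif2ak3 stood near its end. The place of Ppp1r15a was 8 in S/S siChchd10, 7 in S/S siControl, 6 in S/S shAtf4 and both A/A groups, and 5 in S/S shControl. The order between genes depends on this length, which is 6755 bases for Eif2s2, 5670 for Eif2ak1 and 7457 for Eif2ak4. Their protein-coding transcripts hold 3167, 4276 and 7301 different 50-base stretches. No other length was tried. In S/S siControl the level was 59.1 ± 3.32 CPM per kb for Eif2s2, 43.6 ± 1.85 for Eif2s1 and 30.0 ± 0.755 for Ppp1r15b (SD, n = 4, as for all means here). The ranges of these neighbours did not overlap. The kinases followed with 11.0 ± 0.350 CPM per kb for Eif2ak4, 9.78 ± 0.561 for Eif2ak1 and 8.84 ± 0.302 for Eif2ak2, where Eif2ak1 and Eif2ak2 overlapped. Ppp1r15a was at 5.88 ± 0.432 CPM per kb and Eif2ak3 at 4.98 ± 0.174. Between groups, the PKR gene changed its place in this order the most. Per kb, Eif2ak2 came last of the 8 genes in A/A siChchd10 (5.58 ± 0.244), where its range overlapped that of Eif2ak3 (5.82 ± 0.113), and it was the highest kinase in S/S shAtf4 (28.4 ± 9.81) and in S/S shControl (23.0 ± 9.09). The tables were normalised separately, so no test was made between them.

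**Figure D1:**
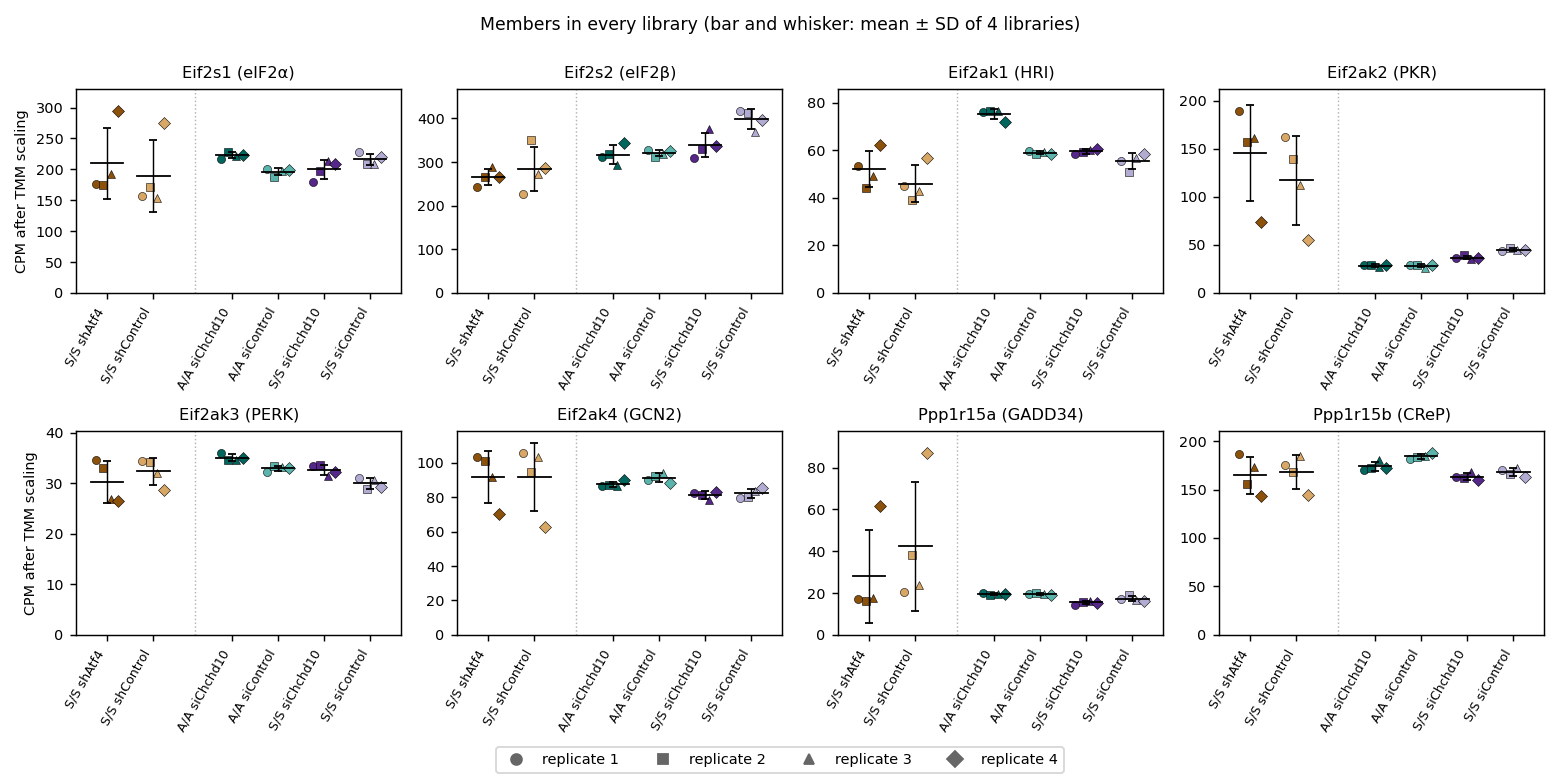
TMM-scaled level (CPM, vertical axis from 0) of each of the 8 genes in all 24 libraries, with shRNA groups left and siRNA groups right of the dotted line. Symbols are replicates and the bar and whisker are mean ± SD of 4 libraries. Eif2ak2 in the siRNA table is lowest in A/A siChchd10 (28.6 CPM) and A/A siControl (28.4 CPM), higher in S/S siChchd10 (36.7 CPM) and highest in S/S siControl (45.2 CPM), and Eif2ak1 stands at 75.2 CPM in A/A siChchd10 alone.

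Shares of the 4 kinase mRNAs per kb depend on the exon lengths in the same way. HRI made up 36.4% ± 1.04 in A/A siChchd10 and 30.9% ± 0.434 in A/A siControl. It made up 30.9% ± 0.760 in S/S siChchd10 and 28.2% ± 1.13 in S/S siControl. The PKR share was 15.3% ± 0.596 in A/A siChchd10, 16.5% ± 0.871 in A/A siControl, 21.1% ± 0.690 in S/S siChchd10 and 25.5% ± 1.21 in S/S siControl. The kinase sum itself was 36.4 ± 0.279 CPM per kb in A/A siChchd10 and 33.7 ± 0.321 in A/A siControl. It was 34.0 ± 0.517 in S/S siChchd10 and 34.6 ± 0.724 in S/S siControl. Every A/A siChchd10 library (36.1 to 36.7) lay above every library of the other siRNA groups (up to 35.4, in S/S siControl). In the shRNA table PKR held 36.7% to 56.1% of the kinase sum in S/S shAtf4 and 31.6% to 53.3% in S/S shControl, with the lowest share in the libraries numbered 4.

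**Figure D2:**
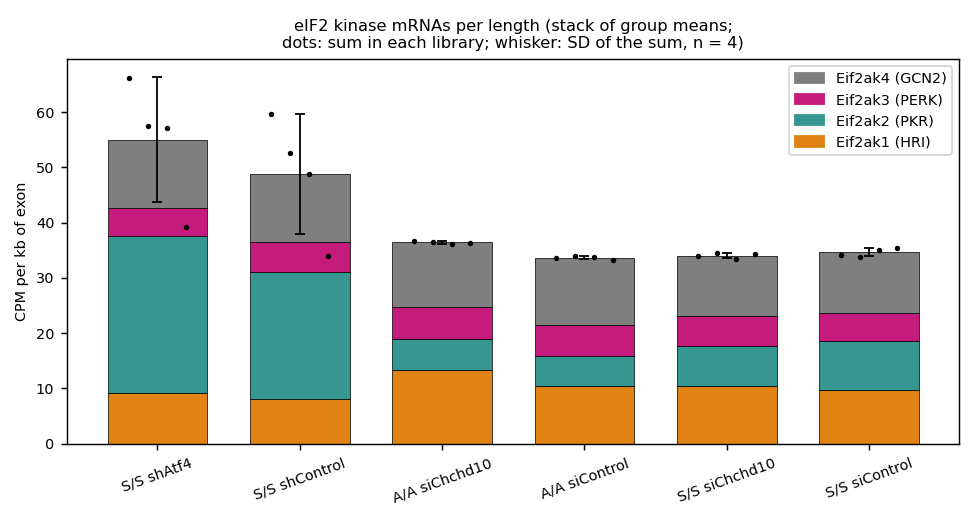
Levels of the 4 eIF2 kinase mRNAs per kb of exon (vertical axis from 0, CPM per kb), stacked as group means, with dots for the sum in each library and whiskers for its SD (n = 4). PKR fills the largest part of the bar in the shRNA groups (28.4 of 55.0 in S/S shAtf4), and HRI the largest in A/A siChchd10 (13.3 of 36.4).

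A/A cells were first set against S/S cells, both with control siRNA, which asks how the set differs where eIF2α cannot be phosphorylated. The PKR gene Eif2ak2 was lower, Eif2s1 and Eif2s2 were lower, and PERK, GCN2 and both phosphatase subunits were slightly higher. By edgeR's quasi-likelihood test with Benjamini-Hochberg adjustment over all genes of the table, which gave every adjusted p here, 7 of 8 passed at 0.05, where 70.2% of the 18138 genes tested passed. Upward calls numbered 4 of 8 against 35.6% of all genes, and downward calls 3 of 8 against 34.7%, so the counts stand near the background. The fold change of Eif2ak2 was larger, in absolute value, than that of 67.5% of genes tested, and those of the other 7 were larger than 12.3% to 40.4%.

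Eif2ak2 (chromosome 17, 78850504 to 78882572, minus strand) measured 29.2, 29.5, 26.3 and 28.7 CPM in A/A siControl, against 43.6, 47.3, 45.1 and 44.8 CPM in S/S siControl. All 4 A/A libraries lay below all 4 S/S libraries. The level fell to 62.9% (log2 fold change -0.67, SE 0.0482, adjusted p = 5.27e-13), and without A/A siControl replicate 1 the fold change was -0.68 and 7 of 8 genes passed. Since RNA came from whole cultures, fewer cells with an RNA and less of it per cell cannot be told apart.

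Eif2s2 (chromosome 2, 154871410 to 154892906, minus strand), whose product contributes to tRNA binding and contacts eIF5 and eIF2B, measured 327, 312, 318 and 325 CPM in A/A siControl and 418, 413, 368 and 397 CPM in S/S siControl. The groups did not overlap, and the log2 fold change was -0.31 (SE 0.0526, adjusted p = 5.88e-06). Eif2s1 measured 200.3, 187, 197 and 198 CPM in A/A siControl and 227, 209, 208 and 219 CPM in S/S siControl, again without overlap, and fell by 0.14 (SE 0.0453, adjusted p = 0.00689).

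Among the other kinases, Eif2ak4 (chromosome 2, 118388583 to 118475234, plus strand) averaged 91.3 ± 2.59 CPM in A/A siControl and 82.3 ± 2.61 CPM in S/S siControl (log2 fold change 0.15, adjusted p = 0.000740). Eif2ak3 (chromosome 6, 70844484 to 70905241, plus strand) averaged 33.0 ± 0.529 CPM in A/A siControl and 30.0 ± 1.05 CPM in S/S siControl (0.14, adjusted p = 0.00556). The groups did not overlap for either gene. Eif2ak1 (chromosome 5, 143817792 to 143902717, plus strand), at 58.9 ± 0.726 CPM in A/A siControl and 55.5 ± 3.18 CPM in S/S siControl, did not pass (0.088, 95% interval 0.0066 to 0.17, adjusted p = 0.0604).

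Both phosphatase subunits rose in A/A siControl. Ppp1r15b (chromosome 1, 133131166 to 133139800, plus strand) averaged 184 ± 2.64 CPM there and 168 ± 4.22 CPM in S/S siControl, with no overlap (0.14, SE 0.0353, adjusted p = 0.00121). Ppp1r15a (chromosome 7, 45522917 to 45526268, minus strand) measured 19.3, 19.9, 19.6 and 19.0 CPM in A/A siControl and 17.4, 19.0, 16.5 and 16.2 CPM in S/S siControl. Its groups touch at 1 S/S library (0.17, SE 0.0563, adjusted p = 0.00804). Beside this, the mRNAs known as targets of the integrated stress response ran the other way from Ppp1r15a: 8 of 11 tested fell (background 34.7%) and none rose, with a median of -0.83 against 0.0089 over all genes. Atf3, a stress-induced transcription factor, fell by 2.11, Chac1, a glutathione-degrading enzyme, by 1.84, and Atf4 itself by 1.66.

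With Chchd10 siRNA in both genotypes the picture of A/A against S/S cells partly changed. Again 7 of 8 genes passed (background 70.5% of genes), with 6 higher (background 34.7%) and 1 lower (background 35.8%). Eif2ak2 stood at 29.4, 28.9, 26.7 and 29.2 CPM in A/A siChchd10 and 36.0, 39.1, 35.8 and 36.1 CPM in S/S siChchd10, which is 77.8% of the S/S level (log2 fold change -0.36, SE 0.0483, adjusted p = 1.22e-07). Eif2ak1 was higher, at 126% of S/S (0.34, SE 0.0409, adjusted p = 2.32e-08), and so was Ppp1r15a, at 127% (0.34, SE 0.0563, adjusted p = 4.51e-06). Eif2s1 was higher by 0.15 (adjusted p = 0.00379), the opposite direction from that under siControl, and Eif2s2 did not pass (-0.092, adjusted p = 0.120). Eif2ak3, Eif2ak4 and Ppp1r15b were higher by 0.10, 0.11 and 0.090, and the first of them lost its call without S/S siChchd10 replicate 3 (adjusted p = 0.111), as did Eif2ak4 (adjusted p = 0.0525).

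Chchd10 siRNA in S/S cells, where eIF2α can be phosphorylated, came with lower PKR and eIF2β mRNA. In this comparison 4 of 8 genes passed (background 28%), 1 upward (background 15%) and 3 downward (background 13%). Eif2ak2 measured 36.0, 39.1, 35.8 and 36.1 CPM in S/S siChchd10 against 43.6, 47.3, 45.1 and 44.8 CPM in S/S siControl. The groups did not overlap, and it fell by 0.30 (SE 0.0475, adjusted p = 1.57e-05). Eif2s2 measured 309.6, 329.7, 376 and 338 CPM in S/S siChchd10 and 418, 413, 368 and 397 CPM in S/S siControl. The highest knockdown library overlapped the lowest control, and the gene fell by 0.24 (SE 0.0526, adjusted p = 0.000957).

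The other changes in S/S cells were smaller. Eif2ak3 rose by 0.13 (SE 0.0429, adjusted p = 0.0287), at 32.7 ± 0.998 CPM in S/S siChchd10 and 30.0 ± 1.05 CPM in S/S siControl. Ppp1r15a fell by 0.15 (SE 0.0571, adjusted p = 0.0447), with 14.4, 15.9, 16.4 and 15.4 CPM in S/S siChchd10 and 17.4, 19.0, 16.5 and 16.2 CPM in S/S siControl. Both calls are fragile: Eif2ak3 held its call in 4 of 8 fits that each left out 1 library (adjusted p up to 0.0858) and Ppp1r15a in 3 of 8 (up to 0.204, without S/S siControl replicate 2). Eif2s1 at -0.11 (95% interval -0.20 to -0.021, adjusted p = 0.0712) and Eif2ak1 at 0.10 (0.022 to 0.18, adjusted p = 0.0643) did not pass, nor did Eif2ak4 (-0.016) and Ppp1r15b (-0.041). In the same comparison 9 of 11 stress response targets fell (background 13%; median -0.33 against 0.00038 over all genes), among them the cystine transporter gene Slc7a11 by 0.56, the asparagine synthetase gene Asns by 0.48 and Atf3 by 0.43.

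In A/A cells, which cannot phosphorylate eIF2α, Chchd10 siRNA came with higher HRI and eIF2α mRNA, and the PKR gene did not pass the test. Here 3 of 8 genes passed (background 53.7%), 2 upward (background 26.5%) and 1 downward (background 27.2%), so with 8 genes the counts stand near the background. Of the alveolar type 2 markers, 5 of 5 tested also rose here, with sums of 1214 to 1418 CPM in A/A siChchd10 and 380.4 to 425 CPM in A/A siControl, and their part in the results was not tested. Eif2ak1 measured 76.2, 76.3, 76.6 and 71.8 CPM in A/A siChchd10 against 59.7, 58.3, 59.4 and 58.3 CPM in A/A siControl. It rose to 128% with no overlap (log2 fold change 0.35, SE 0.0409, adjusted p = 3.32e-08), a change larger than that of 61.0% of genes. Eif2s1 measured 217, 228, 221 and 223 CPM in A/A siChchd10 and 200.3, 187, 197 and 198 CPM in A/A siControl, and rose by 0.18 (SE 0.0453, adjusted p = 0.00110). All its knockdown libraries lay above all controls.

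Eif2ak2 averaged 28.6 ± 1.25 CPM in A/A siChchd10 and 28.4 ± 1.47 CPM in A/A siControl (0.0076, 95% interval -0.088 to 0.10). Ppp1r15a averaged 19.7 ± 0.419 CPM in A/A siChchd10 and 19.5 ± 0.409 CPM in A/A siControl (0.014, interval -0.094 to 0.12). Ppp1r15b fell by 0.086 (SE 0.0352, adjusted p = 0.0408), a call that held in only 1 of 8 fits without a library and was lost with RLE scaling (adjusted p = 0.102). Eif2ak3 had 35.1 ± 0.683 CPM in A/A siChchd10 and 33.0 ± 0.529 CPM in A/A siControl, without overlap, and did not pass (0.089, adjusted p = 0.0775), though it did with RLE scaling (adjusted p = 0.0395). Eif2s2 (-0.016) and Eif2ak4 (-0.060) did not pass.

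Whether the siRNA effect differed between the genotypes was tested as an interaction, the effect in A/A minus that in S/S cells. It was positive and passed for 4 of 8 genes, where 35.6% of all genes passed, 16.7% with a positive and 18.9% with a negative difference. The difference was 0.29 for Eif2s1 (SE 0.0641, adjusted p = 0.000650), made of 0.18 in A/A and -0.11 in S/S cells. For Eif2ak2 it was 0.31 (SE 0.0681, adjusted p = 0.000778), for Eif2ak1 0.25 (SE 0.0581, adjusted p = 0.00132) and for Eif2s2 0.22 (SE 0.0744, adjusted p = 0.0206). These 4 calls held in all 16 fits that each left out 1 library. It did not pass for Ppp1r15a (0.17, 95% interval 0.012 to 0.32, adjusted p = 0.103), Eif2ak3 (-0.036), Eif2ak4 (-0.044) or Ppp1r15b (-0.045). These comparisons share libraries, so the effects are set side by side and not correlated.

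**Figure D3:**
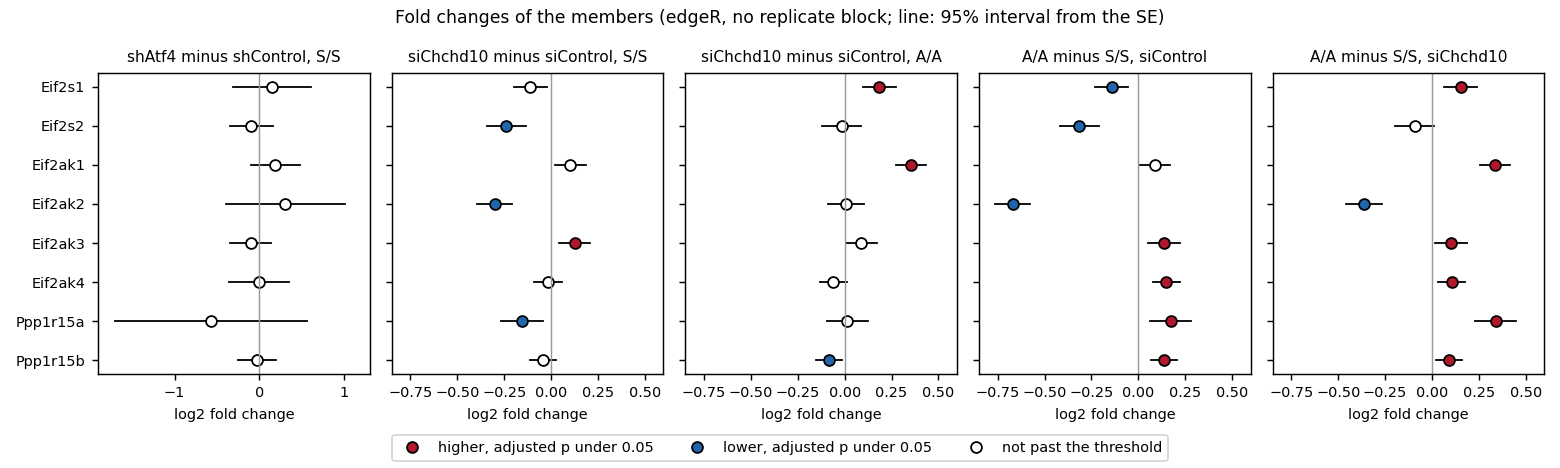
Log2 fold changes (horizontal axis) of the 8 genes in 5 comparisons, the first named group over the second, without a replicate block. Lines are 95% intervals from the SE by the normal distribution, and filled symbols passed an adjusted p of 0.05. The shAtf4 panel has its own wider axis and no filled symbol, and Eif2ak2 is the lowest point of the A/A against S/S panels (-0.67 and -0.36).

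Ratios between subunit mRNAs were also read from these levels. Their size depends on the exon lengths used, 6755 bases for Eif2s2 and 4951 for Eif2s1. Eif2s2 also shares 21.9% of its 50-base stretches with Gm9892. The ratios therefore serve to compare groups and do not measure a balance of subunits. Per kb, Eif2s2 over Eif2s1 was 1.05 ± 0.0673 in A/A siChchd10, 1.20 ± 0.0153 in A/A siControl, 1.24 ± 0.0457 in S/S siChchd10 and 1.35 ± 0.0665 in S/S siControl. Ppp1r15b over Ppp1r15a was 4.64 ± 0.180 in A/A siChchd10, 4.98 ± 0.159 in A/A siControl, 5.53 ± 0.275 in S/S siChchd10 and 5.12 ± 0.386 in S/S siControl. With these exon lengths, the mRNA of the constitutive subunit thus had the higher level per kb in every siRNA group. In the shRNA table that ratio spanned 1.22 to 5.71 in S/S shAtf4 and 0.867 to 4.54 in S/S shControl, and the library numbered 4 was the lowest of each group. No test was made on these ratios.

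ATF4 knockdown in S/S cells asks whether the set depends on the factor that eIF2α phosphorylation brings out. Without regard to library numbers, 0 of 8 genes passed by edgeR, 0 had an unadjusted p under 0.05 and 0 passed by DESeq2, in a comparison where 0.538% of 14697 genes passed (0.15% up and 0.388% down). Deviations of same-numbered libraries correlated at 0.241 to 0.789 in this table, and those of other pairs at -0.586 to 0.314. For number 3 the pair (0.241) stood below S/S shControl replicate 3 with S/S shAtf4 replicate 2 (0.314). The labels give no pairing. A fit with the number as a block, a choice made from these same data, is given beside this. In it 3 of 8 passed, where 20.2% of genes passed: Eif2ak2 and Eif2ak1 upward (background 10.1%) and Ppp1r15a downward (background 10.1%). Without both libraries numbered 4 and without the block, 0 of 8 passed (log2 fold changes -0.70 to 0.29, lowest adjusted p = 0.0787), where 11.7% of genes passed, 5.58% up and 6.14% down.

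The promoter of Ppp1r15a is shown because GADD34 is a known target of the stress response and this comparison lowers Atf4, one of its activators. The sequence is from RefSeq (GRCm38.p6), chr7:45526219-45526518, minus strand, 250 bases before to 50 after the gene's start, and the capitals mark TGACGTCA, the cyclic AMP response element, found 12 bases before the start.
Ppp1r15a promoter: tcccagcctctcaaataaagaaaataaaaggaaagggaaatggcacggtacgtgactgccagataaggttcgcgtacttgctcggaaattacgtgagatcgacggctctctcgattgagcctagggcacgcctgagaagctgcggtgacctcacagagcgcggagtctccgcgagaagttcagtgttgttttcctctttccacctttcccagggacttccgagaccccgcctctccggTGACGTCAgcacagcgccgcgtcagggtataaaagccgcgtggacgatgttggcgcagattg
Searched on both strands, that motif is in 1.79% of 32851 promoter windows and in no other window of the 7 genes that matched the table. The amino acid response element core TGATGNAAN (3.95% of windows) and the endoplasmic reticulum stress element, CCAAT and CCACG with 9 bases between (0.119%), were not in these windows. CCAAT, with 37.4% of windows, was found 6 times in that of Eif2ak3 and at 1 place in that of Eif2ak1. A match is a description of these letters only.

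Ppp1r15a measured 17.2, 16.2, 17.4 and 61.5 CPM in S/S shAtf4, in the order of their numbers, and 20.3, 38.1, 24.0 and 87.2 CPM in S/S shControl. Each knockdown library was below the control of its number, and the libraries numbered 4 were far above the rest. The fold change was -0.57 (SE 0.577, 95% interval -1.71 to 0.56, adjusted p = 0.811) without the block, where leaving out 1 library gave -1.32 to 0.052, and -0.61 with it (adjusted p = 0.0183). Without both libraries numbered 4 it was -0.66 with the block (adjusted p = 0.0350), and without those numbered 3 the blocked call was lost (adjusted p = 0.0883).

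Eif2ak2 measured 189.8, 157, 162 and 73.5 CPM in S/S shAtf4 and 163, 139.6, 113 and 54.8 CPM in S/S shControl, so all 4 knockdown libraries exceeded the control of their number while the groups overlapped widely. The fold change was 0.30 (95% interval -0.39 to 1.00, adjusted p = 0.842) without the block and 0.33 with it (adjusted p = 0.00189). The blocked call held without both libraries of any 1 number (adjusted p 0.00170 to 0.0296). Eif2ak1, with 53.3, 44.0, 49.2 and 62.2 CPM in S/S shAtf4 and 45.1, 38.9, 43.0 and 56.8 CPM in S/S shControl, also exceeded its control in each number. Its change was 0.19 in either fit (adjusted p = 0.738 without and 0.0479 with the block), and the blocked call was lost without the pair numbered 1, 2 or 3 (0.109 to 0.220).

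**Figure D4:**
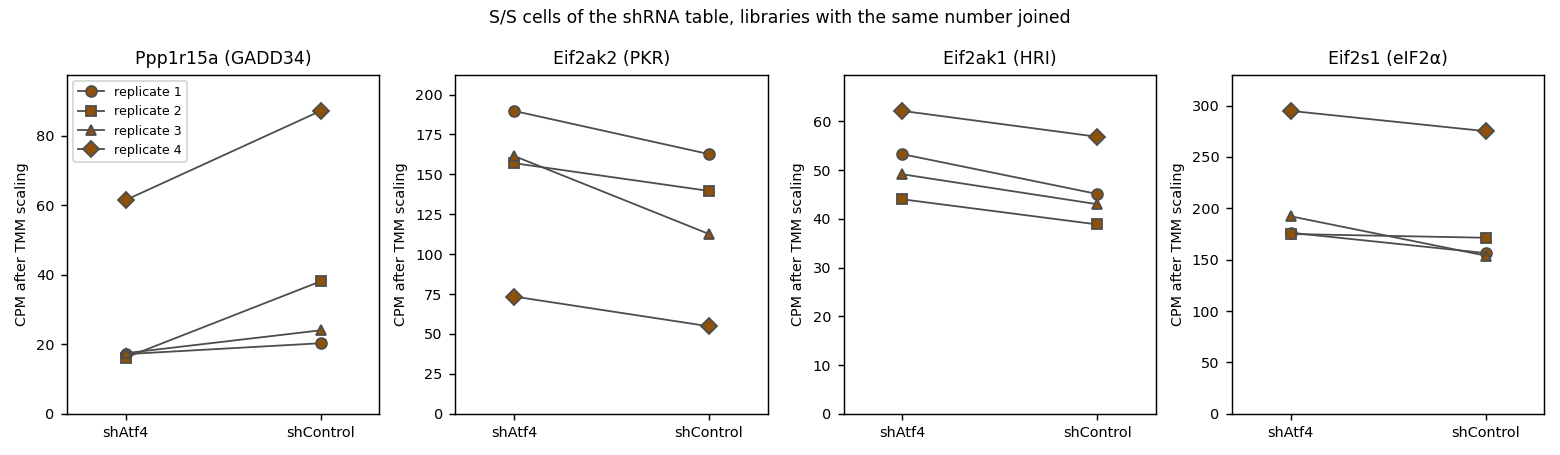
Level (CPM, vertical axes from 0) of 4 genes in S/S shAtf4 and S/S shControl, with a line joining libraries of the same number. All lines run downward to shControl for Eif2ak2, Eif2ak1 and Eif2s1 and upward for Ppp1r15a, and replicate 4 stands apart for Ppp1r15a (61.5 CPM in S/S shAtf4 and 87.2 CPM in S/S shControl) and Eif2s1 (295 CPM in S/S shAtf4 and 275 CPM in S/S shControl).

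Eif2s1 measured 176, 175, 192 and 295 CPM in S/S shAtf4 and 156, 171, 154 and 275 CPM in S/S shControl (0.16 with the block, adjusted p = 0.0722). Eif2s2 (-0.084 with the block), Eif2ak3 (-0.10), Eif2ak4 (0.012) and Ppp1r15b (-0.030) did not pass in either fit. Of 12 stress response targets 2 fell without the block, Stc2 and Atf4 (background 0.388%), and all 12 fell with it (background 10.1%). Without both libraries numbered 4 and without the block, 5 fell (background 6.14%). Atf4 is the target of the shRNA, so its own fall is no sign of a response among its targets. Of the 12 genes, 1 had no count in any S/S shAtf4 library. The call of Atf4 itself (log2 fold change -1.33, adjusted p = 0.0327, and 0.00431 with the block) held in 1 of 8 fits without a library and without the block, and without both libraries numbered 4 (adjusted p = 0.00360). The median over the 12 was -0.52, against -0.0049 over all genes. The knockdown and control cultures also differed in Y-linked genes. All 4 that were tested fell, among them the eIF2γ gene Eif2s3y with 0.516 to 0.768 CPM in S/S shAtf4 and 18.2 to 23.8 CPM in S/S shControl (log2 fold change -5.01, adjusted p = 5.79e-06), and all 4 also fell without the libraries numbered 4. What part this difference between the cultures has in the changes above was not tested.

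PKR is itself induced by interferon, and its promoter is shown with the sequence that interferon-activated factors bind. It is at chr17:78882523-78882822, minus strand (RefSeq, GRCm38.p6), with the core of the interferon-stimulated response element (GAAA, 2 bases of any kind, GAAA) in capitals, 18 bases after the start.
Eif2ak2 promoter: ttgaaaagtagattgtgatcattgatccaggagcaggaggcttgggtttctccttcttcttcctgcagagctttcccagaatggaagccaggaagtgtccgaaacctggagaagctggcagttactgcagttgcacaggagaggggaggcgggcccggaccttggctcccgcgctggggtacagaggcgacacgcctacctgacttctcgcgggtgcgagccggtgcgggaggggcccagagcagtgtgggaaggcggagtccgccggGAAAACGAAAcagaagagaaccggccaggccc
The motif occurs in 3.44% of windows, on either strand, and also stands 220 bases before the start of Ppp1r15a and 212 bases before that of Eif2s1. The 16 interferon-induced genes listed beside it do not include Eif2ak2. In S/S siChchd10 against S/S siControl, 14 of 15 tested fell (background 13%) and 1 rose (background 15%), with a median of -1.80. The largest falls were Ifi44 (-2.98), Oas2 (-2.71), which senses double-stranded RNA as PKR does, and Oas3 (-2.65). Ifi44 was near the floor, at 0.141 CPM in S/S siChchd10. Mx1, at 0.366 CPM in S/S siChchd10 and 0.0366 CPM in S/S siControl, was the one that rose. Of the 16 genes 11 reached 1 CPM on average in S/S siChchd10 and 14 in S/S siControl. Their summed level was 178 to 183 CPM in S/S siChchd10 and 301 to 340.2 CPM in S/S siControl.

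In A/A siControl against S/S siControl 13 of 15 interferon-induced genes fell (background 34.7%) and 1, Ifih1, rose (background 35.6%; median -0.92), with sums of 212 to 228 CPM in A/A siControl and 301 to 340.2 CPM in S/S siControl. In A/A siChchd10 against A/A siControl, where Eif2ak2 did not pass, 9 fell (background 27.2%) and 3 rose (background 26.5%; median -0.87), and the sums were 206 to 214 CPM in A/A siChchd10 and 212 to 228 CPM in A/A siControl. In A/A siChchd10 against S/S siChchd10, where Eif2ak2 was lower (-0.36), 7 of 15 fell (background 35.8%) and 5 rose (background 34.7%; median -0.23). The sums there were 206 to 214 CPM in A/A siChchd10 and 178 to 183 CPM in S/S siChchd10. The interaction passed for 12 of 15 and was positive for each (background 16.7%; median 0.70).

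In the shRNA table the interferon sum was 3233, 3123, 2746 and 659 CPM in S/S shAtf4 and 2137, 2035, 1287 and 301 CPM in S/S shControl. Eif2ak2 was likewise lowest in the library numbered 4 of each group. None of the 16 genes passed by edgeR without the block, 1 had an unadjusted p under 0.05 and 0 passed by DESeq2, while 12 rose with the block (background 10.1%; median 0.76 without it), among them Zbp1 by 1.86, Ifit3 by 1.25 and Ifit1 by 1.16. Without both libraries numbered 4 and without the block, 9 rose (background 5.58%). The part of an interferon response in the level of Eif2ak2 was not tested.

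**Figure D5:**
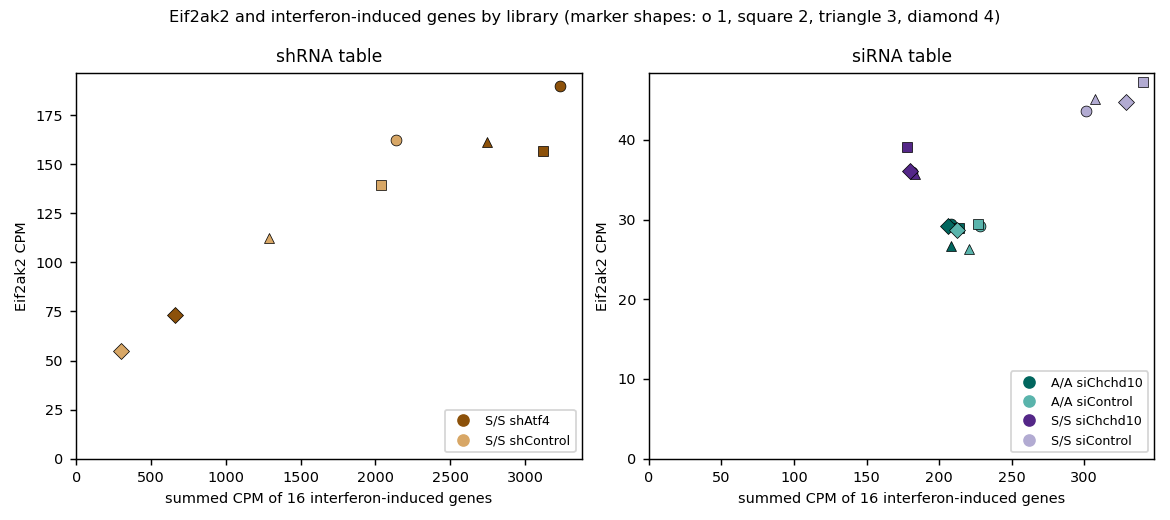
Eif2ak2 level (CPM, vertical axis) against the summed level of 16 interferon-induced genes (CPM, horizontal axis) in each library, 1 panel a table with its own scale. In the shRNA table both are highest in S/S shAtf4 replicate 1 (189.8 and 3233 CPM) and lowest in S/S shControl replicate 4 (54.8 and 301 CPM). In the siRNA table S/S siControl lies apart at the upper right, and the A/A groups have less Eif2ak2 than S/S siChchd10 at a higher interferon sum.

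Of 9 genes for eIF2γ, eIF2B subunits, eIF5 and Cdc123, a chaperone of eIF2 assembly, 6 rose (background 26.5%) and 1, Eif2s3y, fell (background 27.2%) in A/A siChchd10 against A/A siControl (median 0.17 against -0.012 over all genes). In S/S cells 0 of 9 passed by edgeR, 2 had an unadjusted p under 0.05 and 0 passed by DESeq2. Cdc123 rose by 0.47 in A/A cells, with 129 ± 6.09 CPM in A/A siChchd10 and 93.4 ± 3.81 CPM in A/A siControl, Eif2b1 by 0.38 and the X-linked eIF2γ gene Eif2s3x by 0.27. The interaction passed for those 3 genes of the 9 and was positive for each (0.36, 0.31 and 0.27).

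In A/A siControl against S/S siControl 3 of 9 partners rose (background 35.6%) and 3 fell (background 34.7%), which is near the background. Eif2s3y rose by 1.46 and Eif2s3x by 0.37. All 5 genes of the list of Y-linked genes and Xist, which includes Eif2s3y, rose in this comparison (median 1.46). Only 4 of the 5 reached 1 CPM on average in A/A siControl and in S/S siControl. The part of this difference between the cultures was not tested. The eIF2γ mRNA per kb, both genes added, was 42.4 ± 1.68 CPM in A/A siControl and 24.3 ± 0.645 CPM in S/S siControl. Eif2b3, a catalytic-module subunit of eIF2B, fell by 0.41. The Y-linked copy held 49.3% ± 1.29 of eIF2γ mRNA in A/A siControl, 31.3% ± 2.53 in S/S siControl, 0.478% ± 0.0740 in S/S shAtf4 and 14.8% ± 2.53 in S/S shControl. Eif2s3x shares 35.4% of its 50-base stretches with the annotated gene Gm2223, so its count is uncertain. The eIF2γ sums and shares also depend on the exon lengths used.

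All 3 catalytic subunits of protein phosphatase 1 fell in A/A siControl against S/S siControl, Ppp1ca by 0.50, Ppp1cb by 0.29 and Ppp1cc by 0.17 (background 34.7% lower), while Ppp1r15a and Ppp1r15b rose. Under Chchd10 siRNA 2 of them rose in A/A cells (Ppp1cc by 0.22 and Ppp1ca by 0.13, background 26.5% higher) and 0 of 3 passed in S/S cells by edgeR, at an unadjusted p under 0.05 or by DESeq2.

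Of 10 genes whose products activate or restrain the kinases, 5 rose (background 35.6%) and 1 fell (background 34.7%) in A/A siControl against S/S siControl. Dele1, which carries the mitochondrial stress signal to HRI, rose by 0.56, with 67.0 ± 1.91 CPM in A/A siControl and 45.3 ± 1.10 CPM in S/S siControl. Dnajc3, an inhibitor of PERK and PKR, rose by 0.51, and Tarbp2, a double-stranded RNA-binding inhibitor of PKR, fell by 0.38. Dele1 did not pass under Chchd10 siRNA in S/S cells (-0.084, adjusted p = 0.151) or A/A cells (-0.071, adjusted p = 0.151). In S/S cells 2 of the 10 fell, Adar, which edits double-stranded RNA, by 0.27 and the adaptor gene Nck1 by 0.19 (background 13%), and none rose. In A/A cells the counts stand near the background of 26.5% higher and 27.2% lower: 2 rose, Hspa5, the chaperone that holds PERK inactive, by 0.43 and Dnajc3 by 0.28, and 4 fell, among them the PKR activator gene Prkra by 0.24. In S/S shAtf4 against S/S shControl 0 of 10 passed without the block (1 at an unadjusted p under 0.05, 0 by DESeq2) and 4 rose and 2 fell with it (background 10.1% each), while 1 rose without both libraries numbered 4 and without the block.

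PERK acts beside the other arms of the unfolded protein response. Of 9 genes of that response 6 rose (background 35.6%) and 1, Atf6, fell (background 34.7%) in A/A siControl against S/S siControl (median 0.22), led by Dnajb9 with 0.57 and Herpud1 with 0.55, and 6 rose (background 26.5%) and Atf6 fell (background 27.2%) in A/A siChchd10 against A/A siControl (median 0.15), led by Dnajb9 with 0.44 and Hspa5 with 0.43. In S/S cells under Chchd10 siRNA Xbp1 rose by 0.17, Atf6 fell by 0.41 and the other 7 did not pass. Eif2ak3 itself moved by 0.14, 0.089 and 0.13 in these 3 comparisons. In S/S shAtf4 against S/S shControl the median of the 9 genes was -0.35, against -0.0049 over all genes. There 0 of 9 passed by edgeR without the block, 5 had an unadjusted p under 0.05 and 2 passed by DESeq2. With the block 4 fell and 1 rose (background 10.1% each). Without both libraries numbered 4 and without the block, 5 fell (background 6.14%) and 0 rose (background 5.58%).

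Within the siRNA table the spread of group means was 0.67 (log2) for Eif2ak2, wider than for 50.8% of genes, 0.44 for Eif2ak1 (31.4%) and 0.34 for Ppp1r15a (21.3%). It was narrowest for Eif2ak4, at 0.17, wider than for only 4.61% of genes. Genes whose centred log2 level over the 16 libraries was nearest to that of Eif2ak2 were Umad1, Nop14, Camk2g, Polr1a and Lonrf1 (root mean square difference 0.0788 to 0.0869, out of 11031 genes). Nearest to Eif2ak1 were Rpn2, Tgfbrap1, Gltp, Cluh and H2ax (0.0374 to 0.0487), and nearest to Ppp1r15a were Pus3, Bag5, Zfp809, Rnmt and Socs6 (0.0595 to 0.0684). The likeness is a description over libraries that share 4 groups.

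Some counts can include reads of other genes. Shared sequence allows this, and so can antisense genes, since the strand setting of the counting is not given in the sources used here. Eif2s2 shares 21.9% of its 50-base stretches with Gm9892 and Eif2s1 8.49% with other genes. Antisense genes cover 11.4% of the exon bases of Ppp1r15b (Gm26616), 8.59% of Eif2ak1 (Aimp2), 8.05% of Eif2ak3 (Gm43292), and 3.40% of Eif2ak2 (Gm26637), while Eif2ak4 and Ppp1r15a share no 50-base stretch with another gene.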

How the data were processed

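RNA was extracted with Trizol and sequenced from stranded total RNA libraries, per the labels' protocols, which name the molecule as polyA RNA. The authors deposited raw whole-number counts per gene symbol in 2 tables of 8 and 16 libraries, aligned to mm10 per the submitters' processing notes, which also name DESeq2 1.24.0. For the aligner, counter, strand setting and annotation, nothing is given in the sources used here. All 24 libraries were used, grouped by the labels.

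Each table was fitted on its own with edgeR 4.0.16 in R 4.3.3 (filterByExpr, TMM, robust quasi-likelihood test), with Benjamini-Hochberg adjustment over all 14697 or 18138 genes tested and a threshold of 0.05. CPM per kb used the union of GENCODE exons (GRCm38). Intervals are the fold change with the SE at the 95% level of the normal distribution. They are narrower than the quasi-likelihood test implies, most of all in the shRNA table with its 8 libraries. The scripts were tested on simulated counts. In the shRNA table the deviations of same-numbered libraries correlated at 0.241 to 0.789 over 4 pairs, and those of other pairs at -0.586 to 0.314. Every same-numbered pair exceeded 0.1, as did some other pairs, and blocked values stand beside these results. The pairing comes from the data, not from the labels.

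Named beside the 8 genes are up to 3 genes passing the threshold with the largest change per list and comparison, and the members of small counts, which were named after their values were seen. The genes and lists were chosen with earlier results of these data known. Alternatives were RLE scaling, DESeq2 1.42.0, other count filters, fewer libraries and a replicate block.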

Additional observations from a re-analysis of the deposited data

Results flagged for a closer look

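In 5 of 48 sets of 4 libraries (8 genes in 6 groups) the most extreme library lay far from the other 3 by Dixon's criterion, which chance meets in about 1 of 20. Of these, 3 were libraries numbered 4 of the shRNA table. Eif2s1 was at 295 CPM in S/S shAtf4 replicate 4, with the nearest library at 192 CPM, and at 275 CPM in S/S shControl replicate 4, with the nearest at 171 CPM. Ppp1r15a was at 61.5 CPM in S/S shAtf4 replicate 4, with the nearest at 17.4 CPM. In the siRNA table Eif2ak1 was at 71.8 CPM in A/A siChchd10 replicate 4, with the nearest at 76.2 CPM, and Eif2ak2 at 39.1 CPM in S/S siChchd10 replicate 2, with the nearest at 36.1 CPM.

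The effect of Chchd10 siRNA differed between A/A and S/S cells, by the test of the interaction, for Eif2s1 (0.29 on the log2 scale), Eif2s2 (0.22), Eif2ak1 (0.25) and Eif2ak2 (0.31).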

How the results depend on the processing

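For S/S shAtf4 against S/S shControl, 79 genes passed, against 2969 with the replicate block, 491 by DESeq2, 1726 without both libraries numbered 4 and 13 to 536 without 1 library. Of the 8 genes 0 passed, against 3 with the block, and 2, 2, 1 and 3 with the block and without both libraries numbered 1, 2, 3 and 4 (chosen after seeing the data). Without 1 library the count was 0 throughout. For S/S siChchd10 against S/S siControl, 4 of 8 passed, against 2 without a count filter, 2 with only the compared libraries and 2 to 5 without 1 library. Signs turned for values near 0. In the shAtf4 comparison Eif2ak4 was 0.0041 with RLE scaling, 0.0011 without a filter, 0.012 with the block, 0.0046 by DESeq2, and 0.027 and 0.074 with the block without numbers 1 and 3, and Eif2s2 was 0.023 with the block without number 2. Leaving out 1 library there gave -0.063 to 0.39 for Eif2s1, -0.19 to 0.023 for Eif2s2, -0.14 to 0.10 for Eif2ak4, -1.32 to 0.052 for Ppp1r15a (the last without S/S shControl replicate 4) and -0.093 to 0.033 for Ppp1r15b. It gave -0.032 to 0.0012 for Eif2ak4 in S/S siChchd10, and -0.045 to 0.032 for Eif2s2 and -0.015 to 0.051 for Eif2ak2 in A/A siChchd10. The causes were not tested.

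In the siRNA table same-numbered libraries did not deviate together (correlations -0.171 to 0.157, 24 pairs). The replicate block there gave 4703 genes for S/S siChchd10, 9431 for A/A siChchd10, 6100 for the interaction, and 12561 and 12588 for A/A against S/S with siControl and siChchd10, and 3, 2, 4, 7 and 7 of the 8 genes. It ended the calls of Ppp1r15a in S/S (adjusted p = 0.0591) and Ppp1r15b in A/A cells (adjusted p = 0.0547).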
